A study of Mus musculus with 4 samples.

Results

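The vomeronasal type 2 receptor genes were taken as every protein-coding gene of the mm9 annotation whose symbol begins with Vmn2r, on any chromosome, which gave 125 of 22367 protein-coding genes. They lay on 9 chromosomes, with 51 on chromosome 7 and 32 on chromosome 17. Of the 125, 8 carry a pseudogene name (such as Vmn2r72-ps) but are annotated as protein-coding and were kept.

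Vomeronasal type 2 receptors are class C G protein-coupled receptors, with a large extracellular ligand-binding domain encoded by the early exons and a transmembrane domain encoded by the last exon. They are made in the sensory neurons of the basal layer of the vomeronasal organ, where they detect peptide and protein pheromones and signal through the G protein subunit Gαo and the channel Trpc2. Hepatocytes are not known to use them, and large clusters of silent receptor genes are a common content of lamina-associated domains (LADs), the stretches of chromatin that touch the nuclear lamina.

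LADs were mapped by DamID, in which a Dam methylase fused to LaminB1 marks adenine at GATC sites of DNA near the nuclear envelope (NE), and an unfused Dam control reports how accessible the DNA is. Primary hepatocytes came from WT and Tm7sf2/NET47 KO mice aged 12 to 16 weeks. The KO is germline, so every cell of the animal lacks Tm7sf2, a sterol reductase. The study places its main pool in the endoplasmic reticulum of most cell types tested, and a further pool in the NE of several. All cells, WT included, were isolated, cultured and transduced for 24 h with a lentivirus for LaminB1-Dam or for the Dam control. Each genotype thus had 1 library per construct, 4 in all, and every library was made from the pooled DNA of 4 mice. No spread between animals can therefore be given, no test between the genotypes was possible, and the genes of a cluster are not replicates. The cells stayed in culture after transduction until their DNA was taken, so cultured cells and not liver were mapped, and cells that took up no virus carry no mark.

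The values were read from LAD lists with 8107 entries in WT and 16076 in KO, and from 2 lists of differential regions (DRs), 7787 WT-only and 8208 KO-only. A DR is a stretch of at least 10 kb that lies in the LADs of 1 genotype and outside those of the other. The lists hold positions with no signal, so the depth behind a border cannot be read from them, and the study states that fewer reads were usable in KO than in WT. They hold no expression values, so neither the hepatocyte label nor the deletion could be checked. Tm7sf2 itself, on chromosome 19, lay outside the LADs of both genotypes. Genes were classed by their span. PI (periphery to interior) genes share at least 1 base with a WT-only DR, IP (interior to periphery) genes with a KO-only DR, and AMB genes with both. Of the rest, PP genes touch a LAD in both lists and the remainder are II.

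In WT the Vmn2r genes were almost wholly at the lamina. The whole span lay in WT LADs for 124 of the 125 genes (99.2%), beside 4423 of 22367 protein-coding genes (19.8%). The only exception was Vmn2r46 on chromosome 7, with 57.8% of its span in a WT LAD. All 125 annotated gene starts lay in WT LADs. Summed over the 3.13 Mb of gene span, 99.8% of bases were in WT LADs, beside 38.3% over all protein-coding genes.

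Most of the family was also in LADs in the KO. In KO LADs lay 92.1% of the bases of the Vmn2r genes, beside 42.3% over all protein-coding genes. The whole span lay in KO LADs for 99 genes (79.2%), and 117 gene starts did. Of the bases that were in WT LADs, 7.74% were outside KO LADs, beside 15.2% over all protein-coding genes. The values were closer among genes that lay wholly in WT LADs. There 7.64% of the bases were outside KO LADs for Vmn2r genes. It was 8.81% for genes of no receptor family, which here means symbols that do not begin with Vmn, Olfr or Taar. Of the Vmn2r genes 79.8%, and of the genes of no receptor family 75.7%, were wholly in KO LADs. For the genes of no receptor family with a span in the Vmn2r range, these values were 11.2% and 75.2%.

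Differences ran in 1 direction only. By class, 106 Vmn2r genes were PP (84.8%), where 17.9% of all protein-coding genes were. There were 19 PI genes (15.2%), where 5.43% of all protein-coding genes were called PI. No Vmn2r gene was IP, although 17.1% of all protein-coding genes were, none was AMB (2.96% of all) and none was II (56.6% of all). A gene must be outside a WT LAD in part to be called IP, and Vmn2r46 was the only Vmn2r gene with any span outside.

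**Figure D1:**
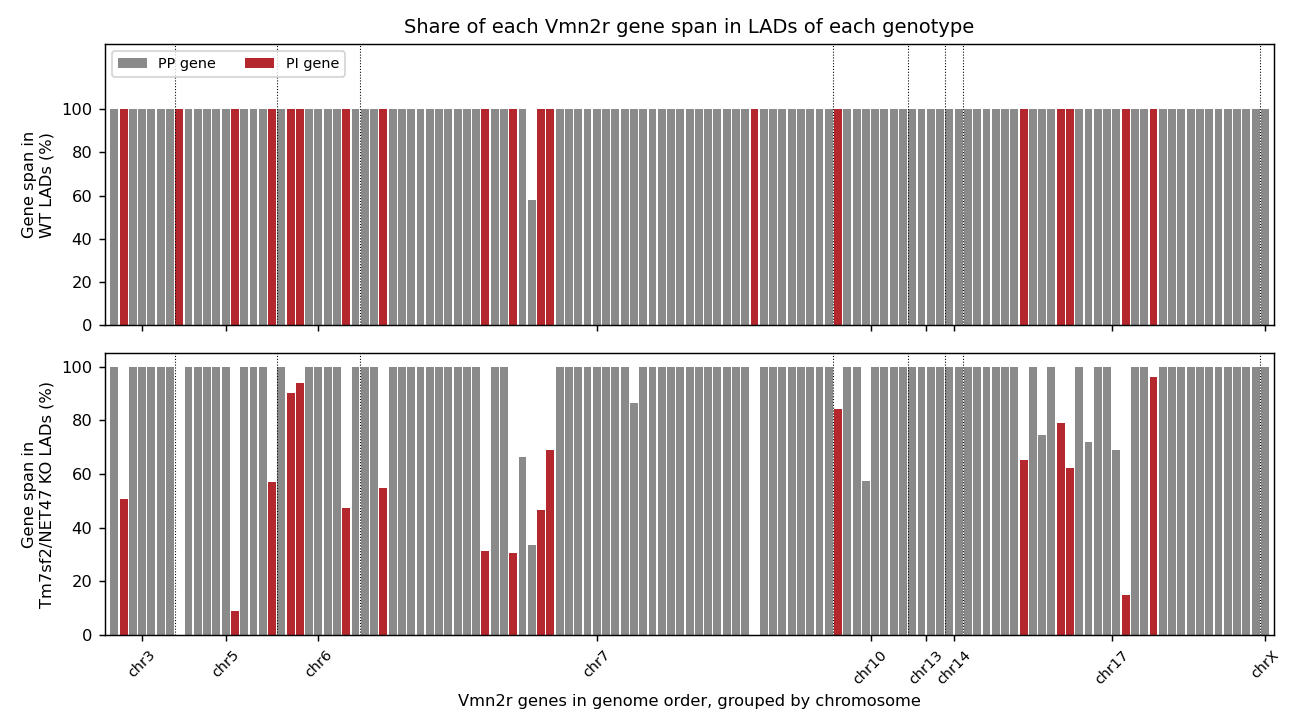
Percent of the span of each of the 125 Vmn2r genes (bars, in genome order, parted by chromosome) in the LADs of WT (top) and Tm7sf2/NET47 KO (bottom), with PI genes in red and PP genes in grey. In WT every bar but that of Vmn2r46 reaches 100%, whereas in KO 26 bars fall short of it and those of Vmn2r8 and Vmn2r71 are at or near 0.

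The gene set that fits the WT position of the Vmn2r genes gives another background. Among 3081 genes of no receptor family (symbols that do not begin with Vmn, Olfr or Taar) that also lay wholly in WT LADs, 629 (20.4%) were PI. Formyl peptide receptor genes were not left out of this set. With the span held to the range of the Vmn2r genes (2.76 to 154 kb), 386 of 1903 (20.3%) were. Of the 124 Vmn2r genes wholly in WT LADs, 19 (15.3%) were PI. The share of PI genes among Vmn2r genes was thus above that of all protein-coding genes and below that of genes that started at the lamina. Neither difference was tested, since neighboring genes share a LAD and there was 1 pooled library pair per genotype.

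Other chemosensory receptor families were also mostly PP. Of 203 Vmn1r genes, the vomeronasal type 1 receptors, 172 were PP, 11 PI (5.42%) and 9 IP. Of 1113 Olfr genes, the odorant receptors, 920 were PP, 107 PI (9.61%) and 13 IP. Over all protein-coding genes 5.43% were PI and 17.1% IP. The 15 Taar genes, receptors for trace amines, differed in their position in WT, because none had a base in a WT LAD and 10 were IP. Vmn2r genes are much longer, with a median span of 22.4 kb against 0.930 kb for Vmn1r and 0.960 kb for Olfr genes, and the part of span length in these counts was not tested. By bases the order was another. Of the bases in WT LADs, 7.74% were outside KO LADs in Vmn2r, 11.9% in Vmn1r and 11.7% in Olfr genes. Among genes wholly in WT LADs these shares were 7.64%, 9.19% and 10.3%.

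**Figure D2:**
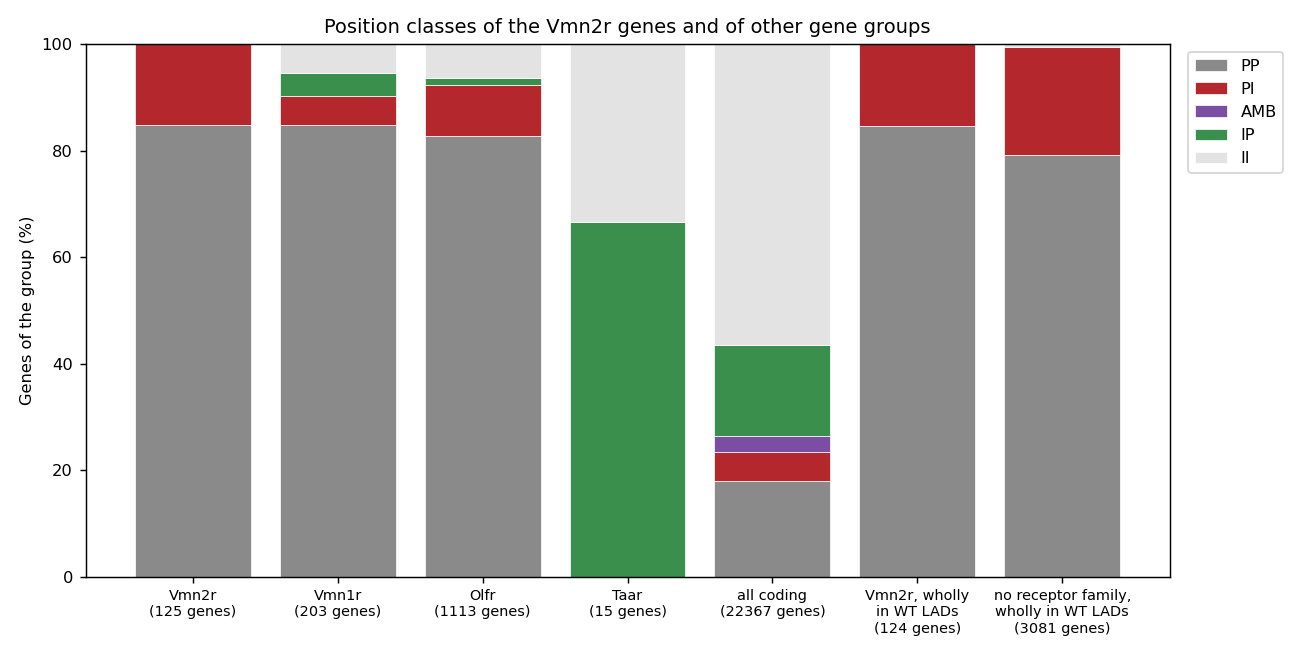
Stacked bars of the percent of genes in each position class for the Vmn2r genes, 3 other receptor families, all protein-coding genes, and the genes that lay wholly in WT LADs. PI makes up 15.2% of the Vmn2r genes, 5.43% of all protein-coding genes and 20.4% of the genes of no receptor family that lay wholly in WT LADs.

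Of the 19 PI genes, 3 were outside KO LADs over nearly all of their span. Vmn2r8 (chr5:109226212-109237773, minus strand) was 100% in WT LADs and 0% in KO LADs, and all of its 6 exons were in a WT-only DR. That DR (chr5:109211259-109255288) was 44.0 kb long, the longest over a Vmn2r gene, and also held part of Tmed11. Vmn2r71 (chr7:92763972-92773057, plus strand) was 100% in WT LADs and 0.154% in KO LADs, since its DR of 17.0 kb began 14 bases after the gene start. Vmn2r14 (chr5:109644521-109653641, minus strand) went from 100% in WT LADs to 8.87% in KO LADs under a DR of 23.5 kb. Its start lay 8.31 kb from the nearest KO LAD and that of Vmn2r8 17.5 kb. Vmn2r8 and Vmn2r14 belong to 1 cluster on chromosome 5, and Vmn2r71 to a cluster on chromosome 7.

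In the next genes a part of the span was also in KO LADs. Vmn2r106 on chromosome 17 was 14.9% in KO LADs, with 5 of 6 exons in its DR. Vmn2r42 and Vmn2r45, both on chromosome 7, were 30.6% and 31.2% in KO LADs, with 4 of 6 exons in a DR each. Vmn2r47, also on chromosome 7, was at 46.5%. Vmn2r26 on chromosome 6, a receptor that detects peptide ligands of major histocompatibility complex (MHC) class I molecules, was at 47.4%, with its DR of 19.6 kb beginning 1.10 kb after the gene start. In these 8 genes a DR took 50% of the span or more.

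In the other 11 PI genes the DR took a smaller part. Vmn2r2, Vmn2r30 and Vmn2r18 were 50.5%, 54.7% and 57.2% in KO LADs. Vmn2r100 was at 62.3%, and its DR of 10.3 kb lay in an intron and met no exon. Vmn2r95, Vmn2r48 and Vmn2r99 were at 65.2%, 68.9% and 79.1%. Vmn2r95 had 9.69% of its span in the DR and 34.8% outside KO LADs, because a second stretch shorter than 10 kb was also missing. Vmn2r80, Vmn2r20, Vmn2r21 and Vmn2r109 were at 84.4%, 90.1%, 94.1% and 96.0%. In Vmn2r109 the DR took the last 0.960 kb of the gene. Each of these genes was 100% in WT LADs, and the share in KO LADs over the 19 genes ran from 0% to 96.0% with a median of 54.7%.

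Each PI gene had a DR of its own, so the 19 calls rested on 19 separate DRs. These were short, from 10.06 to 44.0 kb with a median of 13.5 kb, and 16 of them were under 20 kb. The median of all WT-only DRs was 15.7 kb. All 19 opened a gap inside a WT LAD, and none was its edge or the whole of it. The WT LADs around them ran from 214 kb, around Vmn2r18, to 3024 kb, around the 5 PI genes of chromosome 17.

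Where the DRs fell on the genes varied. In 5 genes the DR held the gene start but not its end (Vmn2r14, Vmn2r20, Vmn2r21, Vmn2r48 and Vmn2r99), in 8 the end but not the start, in 1 both (Vmn2r8), and in 5 neither (Vmn2r2, Vmn2r26, Vmn2r30, Vmn2r45 and Vmn2r100). Of 112 exons of PI genes, 54 had bases in a WT-only DR. Counting exons from the gene start in the 17 PI genes with 6 exons, exon 1 was met in 8 genes, exon 2 in 9, exon 3, a long exon of the extracellular domain, in 10, exon 4 in 8, exon 5 in 7 and exon 6, which encodes the transmembrane domain, in 9. The counts were thus close to each other from the first exon to the last.

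**Figure D3:**
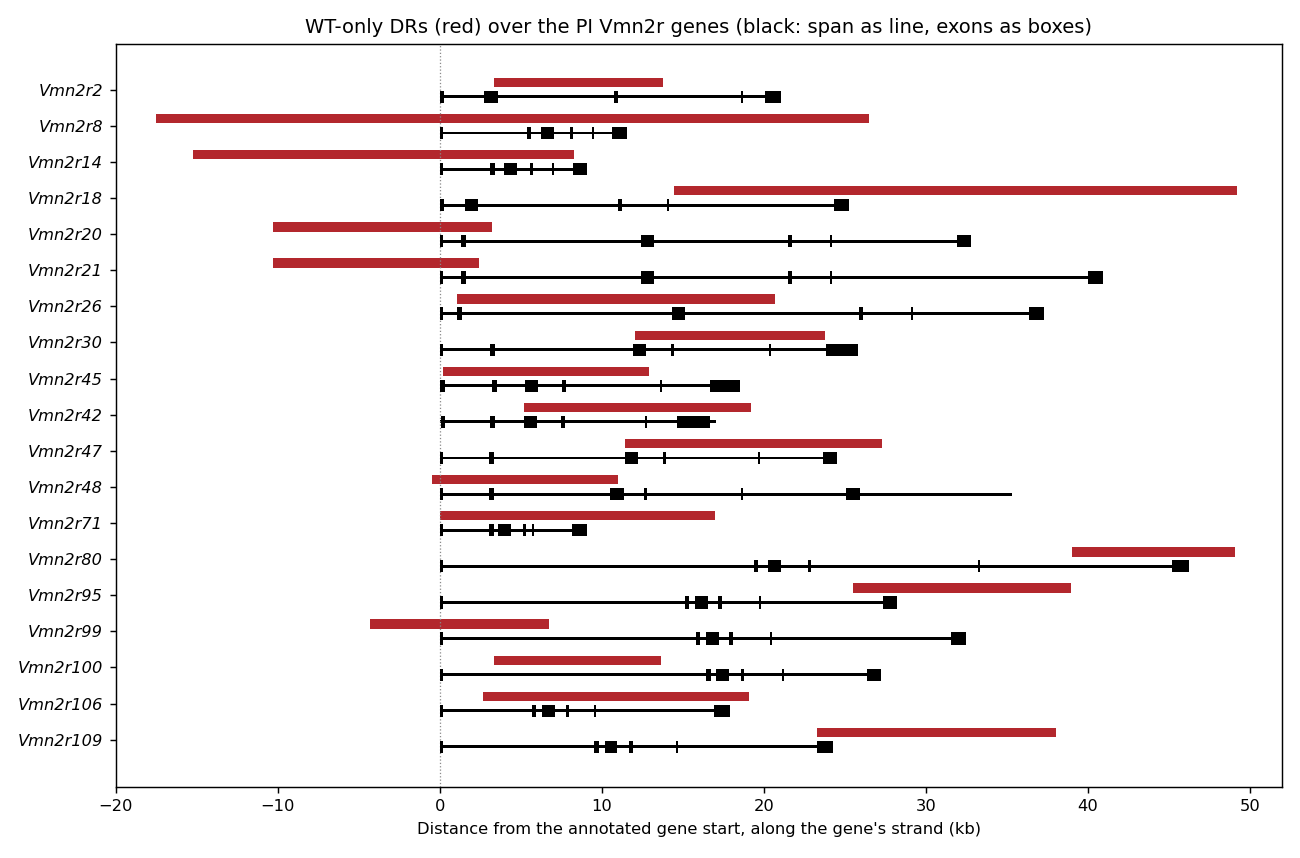
The WT-only DR (red bar) over each of the 19 PI Vmn2r genes (black line for the span, black boxes for the exons), by distance in kb from the annotated gene start along the gene's strand. The DRs cover the whole of Vmn2r8, begin 14 bases after the start of Vmn2r71, and elsewhere fall on the start, the end or the middle of the gene.

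For 8 Vmn2r genes the annotated start was outside KO LADs. In 6 of these it lay in a DR, namely Vmn2r8, Vmn2r14, Vmn2r20, Vmn2r21, Vmn2r48 and Vmn2r99. The starts of Vmn2r83 and Vmn2r95 lay in shorter stretches, 1.90 and 1.91 kb from the nearest KO LAD. The nearest KO LAD was 0.490 kb from the start of Vmn2r48, 2.42 kb from that of Vmn2r21, 3.26 kb from that of Vmn2r20 and 4.27 kb from that of Vmn2r99.

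The 150 bases just before these 6 starts are printed from NCBIM37 (the same assembly as mm9), 5′ to 3′ on the strand of the gene, with GATC, the site that Dam methylates and that sets how finely DamID can resolve a promoter, in capitals. Those of Vmn2r8 and Vmn2r14 hold 2 and 3 sites and the other 4 hold none. The window before Vmn2r116, a PP gene, holds 1 and is given for comparison.
Vmn2r8 (chr5:109237774-109237923): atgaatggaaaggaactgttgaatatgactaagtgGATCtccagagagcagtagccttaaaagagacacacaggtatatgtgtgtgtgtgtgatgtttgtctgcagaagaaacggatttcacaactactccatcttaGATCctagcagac
Vmn2r14 (chr5:109653642-109653791): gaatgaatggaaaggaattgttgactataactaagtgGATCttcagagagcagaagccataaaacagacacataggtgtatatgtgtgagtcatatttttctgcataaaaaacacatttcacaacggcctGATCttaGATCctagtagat
Vmn2r20 (chr6:123368080-123368229): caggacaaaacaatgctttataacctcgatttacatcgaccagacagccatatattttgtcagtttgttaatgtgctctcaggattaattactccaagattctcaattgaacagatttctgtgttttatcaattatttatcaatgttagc
Vmn2r21 (chr6:123483425-123483574): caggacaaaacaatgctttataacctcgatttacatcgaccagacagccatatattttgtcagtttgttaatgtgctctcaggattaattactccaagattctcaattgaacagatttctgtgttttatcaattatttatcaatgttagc
Vmn2r48 (chr7:10538935-10539084): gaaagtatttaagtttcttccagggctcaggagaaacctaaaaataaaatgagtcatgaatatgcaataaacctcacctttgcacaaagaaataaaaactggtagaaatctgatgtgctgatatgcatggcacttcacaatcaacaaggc
Vmn2r99 (chr17:19498949-19499098): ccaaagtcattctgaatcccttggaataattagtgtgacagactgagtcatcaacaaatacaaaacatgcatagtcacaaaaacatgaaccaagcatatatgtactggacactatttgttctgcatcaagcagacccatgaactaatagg
Vmn2r116 (chr17:23521620-23521769): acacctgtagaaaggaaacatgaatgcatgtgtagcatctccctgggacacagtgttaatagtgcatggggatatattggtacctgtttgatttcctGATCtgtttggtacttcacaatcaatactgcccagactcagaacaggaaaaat

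GATC reads the same on both strands. It occurred in such a window for 56 of the 125 Vmn2r genes (44.8%) and for 25.1% of all 22367 protein-coding genes. Among the 19 PI genes it was in 5 windows. A window without a site says only that those 150 bases cannot be marked themselves.

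Vmn2r20 and Vmn2r21 stand apart from the other PI genes because the bases before their starts are the same over the 150 shown. Their annotated transcripts were 99.4% identical, the highest value between any 2 Vmn2r genes, and each was the closest relative of the other. Their DRs were 13.5 and 12.7 kb long, and both began 10286 bases before the gene start. At that upstream border the same 40 bases of the plus strand occurred in both places, with the GATC of the border in capitals, whereas the borders inside the genes differed.
Vmn2r20 DR, upstream border (chr6:123378345-123378384): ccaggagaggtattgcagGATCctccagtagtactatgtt
Vmn2r21 DR, upstream border (chr6:123493690-123493729): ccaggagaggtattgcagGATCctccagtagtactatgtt
Vmn2r20 DR, border inside the gene (chr6:123364802-123364841): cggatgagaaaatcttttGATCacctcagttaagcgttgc
Vmn2r21 DR, border inside the gene (chr6:123480981-123481020): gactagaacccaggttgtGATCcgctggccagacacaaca

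In both DRs every sampled word of 32 bases occurred at more than 1 place in the assembly (100%), so sequence of that length cannot be given to 1 of the copies. Vmn2r22, whose transcript was 98.2% identical to that of Vmn2r21, was wholly in the LADs of both genotypes. All 38 borders of the DRs over Vmn2r genes lay at a GATC. The method fixes this in advance, because LADs were called from ratios per GATC fragment.

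Copies that resemble each other are a feature of the whole family. The closest relative of a Vmn2r gene had a transcript identity of 94.0% at the median (range 50.2% to 99.4%), and 50 genes had a relative at 95% or more. Over the gene spans, the share of 32-base words found elsewhere had a median of 38.1% in Vmn2r genes and 6.07% in all protein-coding genes. A high share was not particular to Vmn2r genes, with medians of 44% in Vmn1r and 38.5% in Taar genes, and it was 12.7% in Olfr genes. Within the Vmn2r genes it was 32.02% in the PI and 39.1% in the PP genes. Over the 19 DRs it ran from 3.85% (Vmn2r2) to 100%, with a median of 37.9%, against 8% over all WT-only DRs, and 8 of the 19 were at 50% or more. How reads with several equal matches were placed is not given in the sources used here, and its part in the calls was not tested.

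The closest relative was PP for 15 of the 19 PI genes and PI for 4. Those 4 were the pair of Vmn2r20 and Vmn2r21 and the pair of Vmn2r30 and Vmn2r42 (94.8% identity). Over the whole family 84.8% of genes were PP and 15.2% PI, so a PP relative is the usual case for any Vmn2r gene. Whether class goes with identity was not tested. Vmn2r45, 31.2% in KO LADs, was 98.9% identical to Vmn2r34, a PP gene. Vmn2r8, 0% in KO LADs, was 96.7% identical to its PP neighbor Vmn2r9. Base composition was alike in both classes. The median G+C content was 36.1% in PI and in PP genes, beside 45.6% in all protein-coding genes. Site density was lower in PI genes, with a median of 2.28 GATC sites per kb against 2.57 in PP genes and 2.41 in all. It was 1.95 over the 19 DRs against 2.26 over all WT-only DRs. The part of site density in the calls was not tested. The DRs held 14 to 121 sites each.

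Beyond the PI genes, 7 PP genes were not wholly in KO LADs. These were Vmn2r41 (66.2%), Vmn2r46 (33.5%), Vmn2r57 (86.4%), Vmn2r83 (57.5%), Vmn2r97 (74.6%), Vmn2r102 (72.0%) and Vmn2r105 (69.1%). The longest stretch of WT LAD outside KO LADs was 3.87 to 9.63 kb in each of them, under the 10 kb that the DR list requires. For Vmn2r46 this counts only the part in a WT LAD, since the rest of its span outside KO LADs was outside WT LADs too. Vmn2r83 had 42.5% of its span outside KO LADs and counted as PP, whereas Vmn2r109 had 3.96% outside and counted as PI. By this rule the length of the gap, not the share of the gene, set the class.

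The 125 genes formed 19 clusters, parted where neighboring Vmn2r genes lay more than 1 Mb apart, of which 13 had at least 3 genes and 4 at least 10. Across the 13.8 Mb of all clusters, 96.8% was in WT LADs and 91.3% in KO LADs. WT LADs that touched a Vmn2r gene numbered 29, with a median length of 520.3 kb, while all WT LADs had a median of 40.8 kb. KO LADs that touched one numbered 64, with a median of 216 kb against 38.8 kb for all. In WT 8 of these LADs were 1000 kb or longer, and in KO 2 were. A long LAD touches a gene more readily than a short one, so a longer median is partly built into this choice. LADs that touch other genes were not compared. The number of LADs in KO was 2.21 times that in WT over the Vmn2r genes and 1.98 times over the whole lists.

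The largest cluster, on chromosome 17 from Vmn2r90 to Vmn2r110, held 22 genes over 2892 kb and was 97.7% in WT LADs and 93.1% in KO LADs. In WT a single LAD of 3024 kb (chr17:18049621-21073575) held 21 of the 22. In KO 13 LADs stood in its place and covered 95.8% of it. Its 5 PI genes were Vmn2r95, Vmn2r99, Vmn2r100, Vmn2r106 and Vmn2r109, and the genes at its ends, Vmn2r90 and Vmn2r110, were wholly in the LADs of both genotypes. Among the neighbors that part runs of Vmn2r genes there were Has1, a hyaluronan synthase, and formyl peptide receptor genes.

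The 3 other large clusters also had more LADs in KO than in WT. On chromosome 7 from Vmn2r37 to Vmn2r52, 9 WT and 17 KO LADs met the 1807 kb of the cluster, stretches between genes included. It held 16 genes, of which 4 were PI (Vmn2r45, Vmn2r42, Vmn2r47 and Vmn2r48). This was the large cluster least covered by LADs, at 88.9% in WT and 81.1% in KO, and 5.53% of it is unknown sequence in the assembly. On chromosome 7 from Vmn2r65 to Vmn2r79, 15 genes lay in 1 WT LAD of 2324 kb, which 7 KO LADs replaced, and Vmn2r71 was the only PI gene. On chromosome 5 from Vmn2r8 to Vmn2r17, 10 genes lay in 1 WT LAD of 785 kb, and 92.0% of the cluster was in 2 KO LADs, with Vmn2r8 and Vmn2r14 as PI genes. Of the genes at the ends of these 3 clusters, Vmn2r37, Vmn2r52, Vmn2r65, Vmn2r79 and Vmn2r17 were 100% in the LADs of both genotypes and Vmn2r8 was not.

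**Figure D4:**
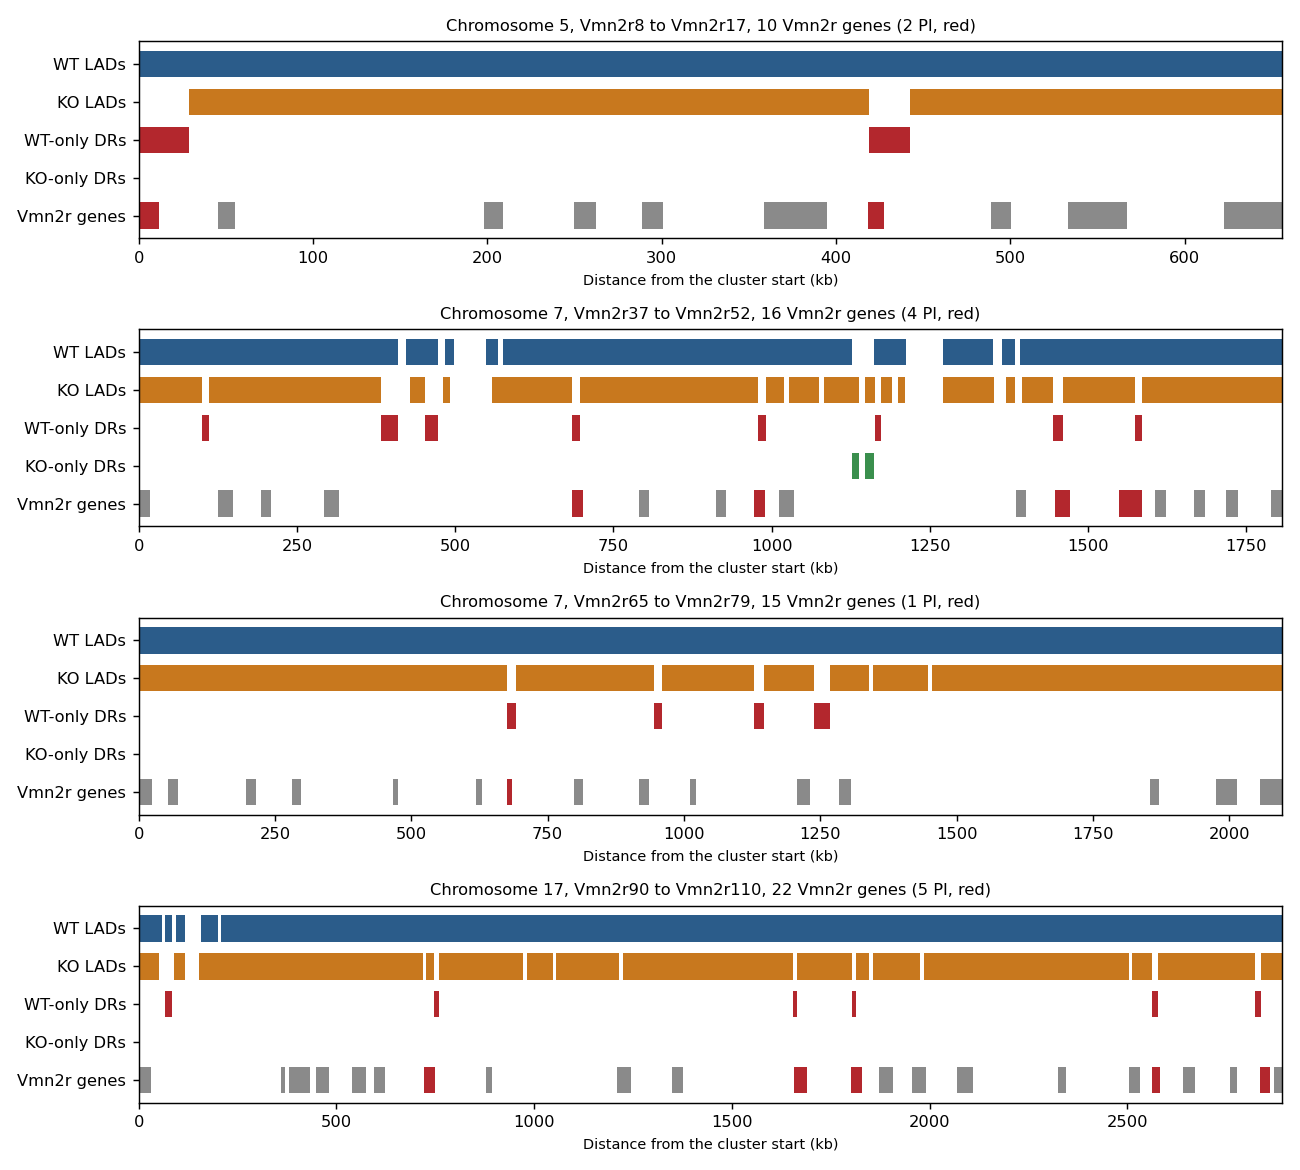
Maps of the 4 clusters of at least 10 Vmn2r genes, by distance in kb from the start of the cluster, with rows for the LADs of each genotype, the DRs and the Vmn2r genes (PI in red, PP in grey). WT LADs run almost unbroken over the clusters on chromosome 5, on chromosome 7 from Vmn2r65 to Vmn2r79 and on chromosome 17, and the KO LADs over the same stretches are parted by gaps. A WT-only DR is a stretch of such a gap, of at least 10 kb, that lies in a WT LAD, and some gaps are shared by both genotypes.

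Among the middle-sized clusters, PI genes were found in 4 and missing from 5. On chromosome 6 (Vmn2r19 to Vmn2r27), 9 genes lay in 1 WT LAD of 1482 kb, and 3 were PI (Vmn2r20, Vmn2r21 and Vmn2r26). In KO 6 LADs met this cluster, stretches between genes included. On chromosome 7 (Vmn2r29 to Vmn2r36), 1 of 8 genes was PI, Vmn2r30. On chromosome 10 (Vmn2r80 to Vmn2r83), 1 of 4 was, Vmn2r80, and LADs went from 2 in WT, 188 kb long on average, to 6 in KO, 48.5 kb long on average. The cluster on chromosome 3 is described with its genes below.

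The 5 clusters of at least 3 genes without a PI gene were of 2 kinds. In the first, LADs were hardly changed between the lists. The 4 genes from Vmn2r53 to Vmn2r56 on chromosome 7 and the 4 from Vmn2r84 to Vmn2r87 on chromosome 10 lay in 1 LAD in either genotype, at 100% in both, and the 4 of chromosome 13 (Vmn2r-ps100 to Vmn2r-ps106) were in a cluster at 100% in WT and 98.8% in KO. In the second, the WT-only DRs fell beside the Vmn2r genes, although a shorter stretch of 6.80 kb outside KO LADs took 13.6% of Vmn2r57. The cluster from Vmn2r57 to Vmn2r63 on chromosome 7 held 7 WT-only DRs and that from Vmn2r111 to Vmn2r117 on chromosome 17 held 3, none over a Vmn2r gene.

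The genes from Vmn2r1 to Vmn2r7 make up family C, whose members are made together with other type 2 receptors in the same neuron. They formed 1 cluster on chromosome 3 (chr3:63885564-64648687), at 98.7% in WT LADs and 95.1% in KO LADs. All 7 were 100% in WT LADs and 6 were 100% in KO LADs, Vmn2r7 with its span of 154 kb included. The exception was Vmn2r2, at 50.5%. Its DR of 10.4 kb (chr3:63927619-63938028) met 2 of its 5 exons and ran from 3.37 to 13.8 kb after its start, which stayed in a KO LAD.

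Both receptors with a protein ligand chosen for naming were PP. Vmn2r116, the receptor of the tear pheromone Esp1, lay at chr17:23521770-23538831 in a WT LAD of 342 kb and was 100% in the LADs of both genotypes. Vmn2r88, a receptor that detects hemoglobin, lay at chr14:52030676-52039202 in a WT LAD of 87.0 kb, near the shortest over the family (76.6 kb), and was also 100% in both.

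The clusters hold more than their genes. Of the 43 WT-only DRs that met a cluster, 19 were over a Vmn2r gene and 24 beside one, 3.92 to 187 kb away. Of these 24, 6 met a Vmn2r pseudogene, 6 another coding gene, 4 another annotated gene and 8 none. Vmn2r genes made up 22.7% of the cluster span and 27.3% of the bases of WT-only DRs in it. A further 34 stretches of WT LAD outside KO LADs were under 10 kb and so not DRs. In the opposite direction, 3 KO-only DRs met the clusters, 51.8 kb in all, and the nearest Vmn2r genes were Vmn2r30 at 8.07 kb and Vmn2r41 at 91.5 and 112 kb. Of 55 Vmn2r genes not annotated as protein-coding, 47 were PP, 7 PI and 1 IP. Over all protein-coding genes 17.9% were PP, 5.43% PI and 17.1% IP. The share over other genes not annotated as protein-coding was not computed, so these counts are a description only.

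Ligands and MHC partners of these receptors, and other receptors of the vomeronasal organ, were found in the classes PP, PI, IP and II. Of 14 genes for Esp peptides, their ligands, 6 were found in the annotation by an older symbol. Of these, 5 were PP, Esp1 among them, and Esp6 was PI (100% in WT LADs and 13.1% in KO LADs). Of the 10 MHC partners, surface molecules of the same neurons with B2m, 5 were PP, 3 PI and 1 IP, and B2m was II. H2-M10.3 went from 100% in WT LADs to 0% in KO LADs, and H2-M10.5 from 0% to 100%. The 4 vomeronasal formyl peptide receptors (Fpr-rs3, Fpr-rs4, Fpr-rs6 and Fpr-rs7) were PP.

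Most signaling genes had another position from that of the receptors, and 9 of 10 lay wholly outside WT LADs. Of the 10, none was PP or PI, 5 were II, 4 IP and 1 AMB. The AMB gene, Ano2, was 86.8% in WT LADs and 68.0% in KO LADs. Trpc2 was outside the LADs of both genotypes, and Gnao1, which encodes Gαo, went from 0% in WT LADs to 48.7% in KO LADs. Of the 15 other class C receptors, 5 were II, 4 PI, 3 PP, 2 IP and 1 AMB. The calcium-sensing receptor gene Casr was PI, at 52.6% in WT LADs and 0% in KO LADs. Over all protein-coding genes 56.6% were II, 17.1% IP and 5.43% PI, and with lists of 4 to 15 genes these counts are a description only.

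The number of PI genes moved with the rule that called them. When a DR had to take 10% of the span or more there were 15 (12%, against 4.99% of all protein-coding genes), when it had to take 50% there were 8 (6.40% against 2.23%), and by the gene start alone 6 (4.80% against 2.23%). With only DRs of 20 kb or longer, 3 were left (Vmn2r8, Vmn2r14 and Vmn2r18), 2.40% against 3.25%. When LADs of a list were joined across gaps of up to 50 kb and subtracted again, no Vmn2r gene was PI, against 2.81% of all protein-coding genes. In a window of 100 kb around each gene, 39 were (31.2% against 9.71%). The share of PI genes in the family was thus above that of all genes under the rules that count short gaps and below it under the 2 rules that leave them out. Most of all genes lay outside WT LADs. Among genes wholly in WT LADs the first rule gave 15.3% for Vmn2r genes and 20.4% for genes of no receptor family. The other rules were not compared with that background.

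**Figure D5:**
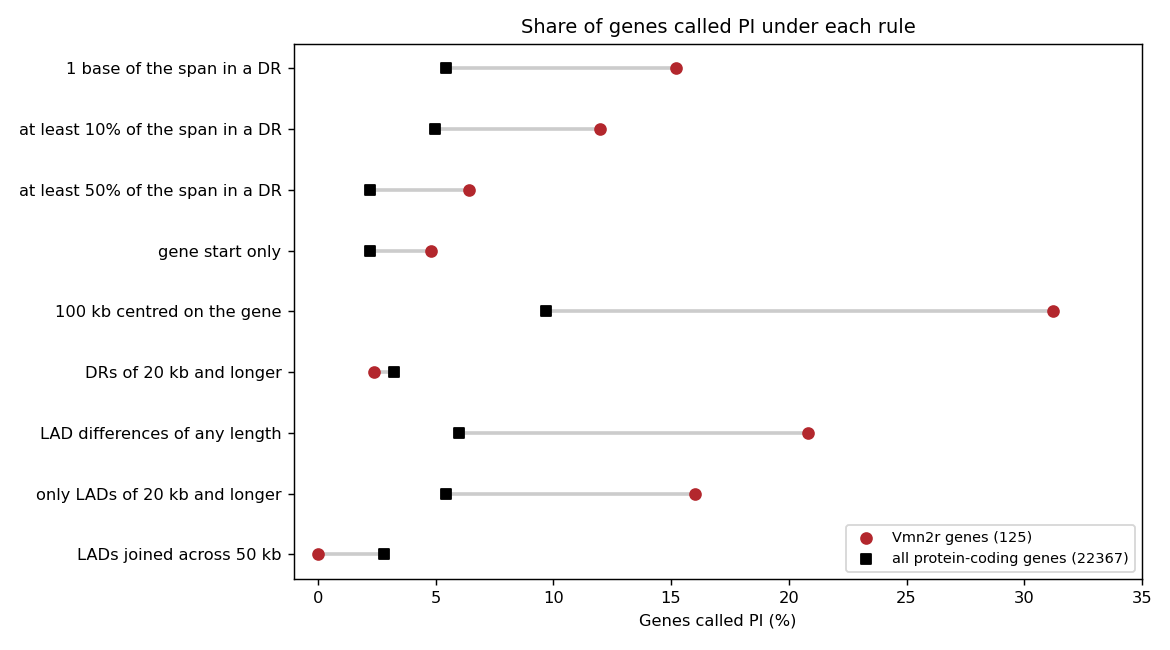
Percent of genes called PI among the 125 Vmn2r genes (red points) and all 22367 protein-coding genes (black squares) under the rule of the report (top) and 8 others. The red point is to the right of the square under 7 of the 9 rules and to its left with DRs of 20 kb or longer and with joined LADs.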

How the data were processed

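DamID was done in primary hepatocytes, with LaminB1-Dam and a Dam control for WT and for Tm7sf2/NET47 KO. The authors mapped reads to mm9, took the log2 ratio of the constructs per GATC fragment and segmented it into LADs (circular binary segmentation). Per the labels, their tools included BWA and limma. The deposited LAD and DR lists hold start and end positions and no signal, so no precision per border can be computed from them. The study states that fewer reads were usable in KO than in WT. Subtracting the LAD lists with a 10 kb minimum returned all 7787 and 8208 DRs.

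Gene spans, exons and bases came from the NCBIM37 assembly (mm9) and its GENCODE annotation, and later symbols of Esp genes from RefSeq. Python 3.11.15, numpy 2.4.6, scipy 1.17.1, pysam 0.24.0, edlib 1.3.9.post1 (transcript identity, by edit distance) and matplotlib 3.10.9 were used. Words of 32 bases were sampled every 100 bases and counted over the assembly on both strands. The interval and word steps, tested on simulated data, gave 0 errors. Positions are 1-based.

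Every PI, IP or AMB gene was named, with the 3 lowest shares in each LAD list, Vmn2r1 to Vmn2r7, Vmn2r88, Vmn2r116, and the ends of clusters of 10 or more. Vmn2r9, Vmn2r22, Vmn2r34 and the 7 PP genes with short gaps were added after their values were seen. The genes and lists were chosen with earlier results of these data known. No test was made, as each genotype had 1 pooled library pair. A number was counted as unchanged under another setting within a factor of 1.5, a share of genes within its exact 95% binomial interval. That interval treats genes that share a LAD as independent, so it is a convention for sorting settings and not an error of the share.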

Additional observations from a re-analysis of the deposited data

How the results depend on the processing

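No paired analysis was possible because each genotype had 1 pooled library pair, and no replicate could be left out. Of 182 values under other settings, 139 stayed within their limits and 43 did not. The 139 include the number and mean length of LADs over the clusters without the largest cluster. For these values no cluster was in fact left out, so they repeat the main values and test nothing. The numbers of PI and PP Vmn2r genes were also computed without the largest cluster (103 genes) and for all 180 genes whatever their biotype, and stayed within a factor of 1.5. What sets the borders, and so the short gaps, cannot be read from lists without signal, and the cause of the changes below was not tested beyond what each setting itself leaves out.

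The 19 PI Vmn2r genes became 8 when a DR had to take 50% of the span, 6 by the gene start (with 2 II genes), 39 in a 100 kb window (with 3 IP and 1 AMB), 3 with DRs of 20 kb or longer and 0 with LADs joined across 50 kb. With all biotypes 1 gene was IP.

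In a 100 kb window, PI genes came to 35 for Vmn1r, 305 for Olfr, 3 for Esp, 7 for MHC partners, 1 for signaling genes and 2 for other class C receptors, and IP genes to 39 for Olfr and 2 for MHC partners. With DRs of 20 kb or longer, PI genes came to 3 for Vmn1r, 0 for Esp and 1 for MHC partners, and IP genes to 4 for Vmn1r, 8 for Olfr, 0 for MHC partners, 2 for signaling genes and 1 for other class C receptors. With differences of any length, 21 Olfr genes were IP. With 10% required, 1 signaling gene and 2 class C receptors were PI. With 50% required, 1 MHC partner and 1 class C receptor were PI, and 1 signaling gene and 1 class C receptor IP. Over all protein-coding genes, 9.71% were PI and 27.1% IP in the 100 kb window (31.2% and 2.40% of Vmn2r genes), 3.25% and 11.1% with DRs of 20 kb or longer, 6% and 17.5% with any length, 4.99% and 15.8% with 10% required, and 2.23% and 7.54% with 50% required. By the gene start these were 2.23% and 11.99%. By the gene start, 0 Esp genes and 0 class C receptors were PI and 2 signaling genes IP.

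The share of Vmn2r genes wholly in WT LADs was 100% with joined LADs and 89.6% in the 100 kb window, and in KO LADs 99.2% and 60%. With joined LADs the clusters were met by 19 WT and 21 KO LADs in place of 43 and 86, with mean lengths of 2034 and 2266 kb in place of 566 and 227 kb.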
